A study of Xenopus laevis with 37 samples.

Results

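The comparison described here sets the libraries labelled hindgut mesoderm (HG_meso, 2 libraries) against those labelled foregut mesoderm (FG_meso, 2 libraries), which were chosen by sample title and make 4 of the 37 libraries of the series. The embryos were Xenopus laevis, the African clawed frog, at stage NF20, an early somite stage. In vertebrate embryos the mesoderm next to the gut tube is patterned along the head to tail axis. Its front part gives rise to the heart, the pharyngeal muscles and, in frogs, the first myeloid blood cells. Its rear part lies near the tail bud, where T-box and caudal homeobox genes act under Wnt and FGF signalling and where the Hox genes of higher paralog number are switched on. The comparison asks which genes differ between these regions once the mesoderm has been taken off the endoderm.

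HG_meso and FG_meso explants came from wild-type embryos with no treatment label, and the endoderm separated from the same regions gave HG_endo and FG_endo (2 libraries each, wild type, no treatment label). Explants of each region with no layer named in the labels served for repeat measurements. HG_DMSO and FG_DMSO (3 libraries each) are wild type and were cultured with the vehicle DMSO from NF12 to NF20. HG_noHS and FG_noHS (2 libraries each) come from embryos that were not heated; they belong to an experiment with a heat-inducible Dkk1 and GFP transgene, although the genotype label reads wild type. All are NF20. The labels speak of independent biological replicates and do not say how many embryos were pooled, how the layers were parted or how pure they were. The tissue label of HG_meso names endoderm, while the title and source name say mesoderm.

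Levels are in TPM, transcript abundances scaled by transcript length and to a common sum, so the read depth of a library is unknown. The 8 layer libraries had between 15182 and 20271 features at 1 TPM or more, with FG_endo replicate 1 lowest and the other 7 at 18182 or more. HG_meso replicates correlated at 0.955 and FG_meso replicates at 0.966 (Pearson, log2 scale, across genes). Between the regions the 4 correlations were 0.932 to 0.951. Fewer cells of a type and less RNA per cell cannot be told apart in such samples.

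The libraries labelled mesoderm had low levels of defining endoderm genes, kept a part of the summed endoderm list, and were very rich in epidermal transcripts. The endoderm gene darmin.L stood at 1.79 and 0.52 TPM in HG_meso and 1.93 and 1.38 TPM in FG_meso, against 4018 and 3774 TPM in HG_endo and 1137 and 1358 TPM in FG_endo. The epidermal lectin itln1.L stood at 5152 and 6874 TPM in HG_meso and 5999 and 7857 TPM in FG_meso, against 1.04 and 3.86 TPM in HG_endo and 0 and 9.26 TPM in FG_endo. All 4 libraries labelled mesoderm thus lay far below the endoderm libraries for darmin.L and far above them for itln1.L. Over the whole endoderm list the summed level was 8504 and 5782 TPM in HG_meso and 10716 and 7737 TPM in FG_meso, against 43461 and 36275 TPM in HG_endo and 19909 and 19794 TPM in FG_endo. In each of the 4 mesoderm libraries its 7 highest members were the copies of krt8, krt18 and epcam, and cdh1.S, genes that epithelia in general use. The member at rank 8 was slc35d1.L in HG_meso, at 26.1 and 42.1 TPM. In FG_meso it was gata5.S in replicate 1 (45.9 TPM) and a2m.S in replicate 2 (47.6 TPM). Of 54 tested endoderm genes 36 were lower and 4 higher in HG_meso than in HG_endo, where 11.6% of all tested features were called lower, and 28 were lower and 7 higher in FG_meso than in FG_endo, where 8.5% were called lower. Over the whole epidermis list the summed level was 31903 and 37858 TPM in HG_meso and 37749 and 49316 TPM in FG_meso, against 5676 and 7684 TPM in HG_endo and 3204 and 4848 TPM in FG_endo. Of 36 tested epidermis genes 31 were higher in HG_meso than in HG_endo, where 21.6% of all tested features were called higher, and 30 were higher in FG_meso than in FG_endo, where 18% were. Of 65 tested mesoderm marker genes 32 were higher and 9 lower in HG_meso than in HG_endo, the lower share lying near that of all tested features. In the foregut 23 were higher and 5 lower. The summed level of this list was 2163 and 1680 TPM in HG_meso and 1579 and 1416 TPM in FG_meso, against 2456 and 1929 TPM in HG_endo and 1138 and 1733 TPM in FG_endo. Between the regions 6 mesoderm markers were higher and 7 lower in HG_meso, with a median log2 difference of 0.27, and 4 were lower without HG_meso replicate 2 or without FG_meso replicate 1. The mesodermal foxf1.S stood at 15.53 and 17.81 TPM in HG_meso and 10.21 and 12.52 TPM in FG_meso, against at most 1.84 TPM in the 4 endoderm libraries. By these lists the samples held mesodermal transcripts together with abundant epidermal ones and with genes of the endoderm list, and the group names below are those of the labels. Between the regions limma called 0 epidermis genes higher (2 at an unadjusted p under 0.05) and 1 of 36 lower in HG_meso (dlx3.L, with 2 called without HG_meso replicate 1 and 0 without any other of the 4), with a median log2 difference of −0.06. The part of epidermal or endodermal RNA in the results below was not tested.

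**Figure D1:**
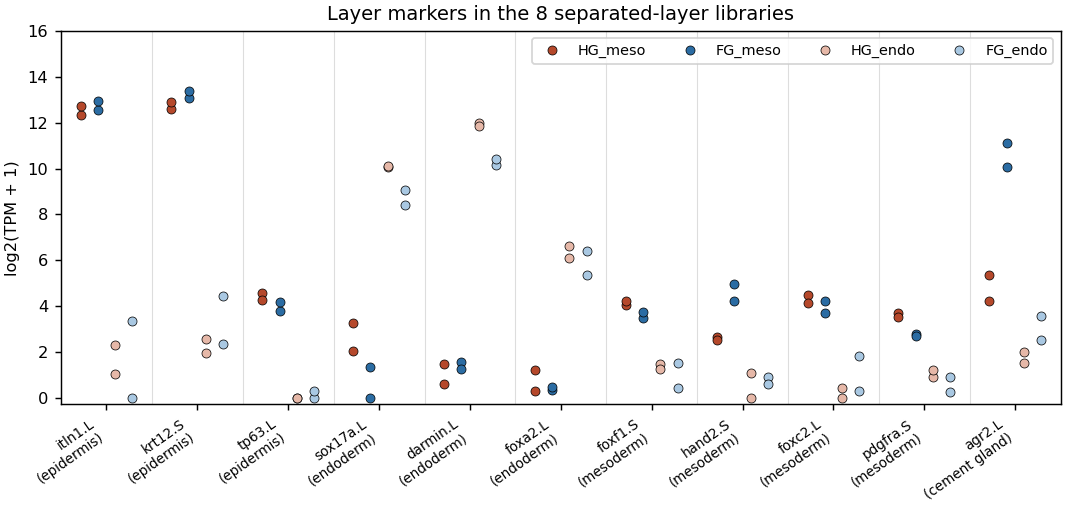
Levels of 11 marker genes, as log2(TPM + 1) on the vertical axis, in the 8 libraries of separated layers, with 1 point per library. The epidermal genes itln1.L and krt12.S are high in all 4 libraries labelled mesoderm and the endodermal sox17a.L, darmin.L and foxa2.L are high in the 4 endoderm libraries; agr2.L of the cement gland is highest in both FG_meso libraries.

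Genes were called at an adjusted p under 0.05 (limma, Benjamini-Hochberg over all 28863 tested features) on log2(TPM + 1), a scale that understates the change of genes with low levels. Of all tested features 415 were higher in HG_meso (1.44%) and 264 were lower (0.915%), together 2.35%. Of these 679 features 628 (2.18% of those tested) differed at least 2-fold. In all 679 the libraries of the groups did not overlap, so such a gap adds nothing to a call. The median log2 difference of all tested features was 0.05. The shares of 1.44% higher and 0.915% lower are the background for every list count below. With 2 libraries per group the smallest 2-sided exact permutation p of a single gene is 0.333, so the calls rest on the spread shared with the other groups of the series. The counts moved with single libraries: 264 higher without HG_meso replicate 1, 227 without FG_meso replicate 1 and 221 without FG_meso replicate 2, and 160 lower without HG_meso replicate 2 and 136 without FG_meso replicate 1. Features called in all 4 of these fits were 152 higher and 91 lower. With the replicate number as a block, 673 were higher and 370 lower. Of the 679 called features 168 carry a model ID or LOC name alone and stay unnamed here.

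Genes of the tail bud and of the presomitic mesoderm, the unsegmented tissue that makes the somites, were among those with a large excess in HG_meso. Of the 15 largest differences by the naming rule 9 were Hox genes, which are described further on. The T-box gene tbx6.L, a regulator of presomitic mesoderm, had 207 and 174 TPM in the HG_meso libraries, against 0.23 and 0 TPM in the FG_meso libraries. It was high in both HG_meso libraries and near 0 in both FG_meso libraries, with a log2 difference of 7.43 (SE 0.62, limma adjusted p = 1.02e-08). The mesogenin gene msgn1.L, a bHLH factor of the same tissue, had 96.6 and 107 TPM in HG_meso, against 0.94 and 0.93 TPM in FG_meso, and differed by 5.73 (SE 0.51, limma adjusted p = 2.46e-08). The Hes-related gene esr-5.L had 122 and 127 TPM in HG_meso, against 1.84 and 2.43 TPM in FG_meso. For both genes the 2 replicates of a region lay close together and the regions far apart. The other homeologs moved the same way, with tbx6.S at 70.3 and 63.4 TPM and msgn1.S at 26.0 and 43.9 TPM in HG_meso, against at most 0.49 TPM in FG_meso.

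Within the paraxial mesoderm list 20 of 55 tested members were higher and 0 lower in HG_meso (36.4% higher, against 1.44% of all features), with a median log2 difference of 0.84. The myogenic factors were part of this. The level of myod1.L was 21.2 and 11.8 TPM in HG_meso, against 0.17 and 0 TPM in FG_meso (log2 difference 3.97, SE 0.58, limma adjusted p = 6.46e-05). That of myf5.L was 17.0 and 8.94 TPM in HG_meso, against 0.22 and 0 TPM in FG_meso. Somite genes were also higher, among them meox2.L with 21.2 and 20.5 TPM in HG_meso, against 0.3 and 0 TPM in FG_meso, and the Notch ligand gene dlc.L with 58.3 and 48.8 TPM in HG_meso, against 1.74 and 2.58 TPM in FG_meso. HG_meso replicate 1 was the higher of the pair for myod1.L, myf5.L and actc1.S. The cardiac and skeletal actin gene actc1.S stood at 221 and 94.3 TPM in HG_meso, against 3.1 and 1.27 TPM in FG_meso, and its call (limma adjusted p = 0.00375) was lost without HG_meso replicate 1 (0.0818) or FG_meso replicate 2 (0.0655).

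The caudal homeobox genes, which set posterior identity and are Wnt targets, were high in HG_meso. The gene cdx4.L had 93.9 and 126 TPM in HG_meso, against 0.27 and 1.18 TPM in FG_meso, a log2 difference of 6.05 (SE 0.49, limma adjusted p = 7.84e-09). The gene cdx2.S had 211 and 281 TPM in HG_meso, against 3.57 and 3.79 TPM in FG_meso, a log2 difference of 5.71 (SE 0.54). Both regions were clearly apart for cdx4 and cdx2. Of the cdx1 pair, cdx1.S had 12.9 and 24.7 TPM in HG_meso, against 0 and 0.19 TPM in FG_meso, and was called, while cdx1.L stayed at 0.76 and 0.26 TPM in HG_meso, against 0 TPM in both FG_meso libraries, and was not (limma adjusted p = 0.693).

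Brachyury, the T-box gene of the tail bud and notochord, was listed at 0 in both FG_meso libraries for t.L, against 16.5 and 21.0 TPM in HG_meso (limma adjusted p = 6.53e-06). Its homeolog t.S stood at 11.4 and 14.8 TPM in HG_meso, against 1.18 and 2.16 TPM in FG_meso, and passed only with the replicate block (limma adjusted p = 0.0519 without it and 0.00113 with it). The even-skipped gene evx1.L, expressed in the posterior mesoderm, had 14.9 and 21.5 TPM in HG_meso, against 0.36 and 0.12 TPM in FG_meso. Over the whole caudal and tail bud list, which holds the cdx genes, 26 of 60 members were higher and 1 lower, with a median of 1.35. The FGF ligand gene fgf8.S was the 1 lower member, and its call was lost without HG_meso replicate 2 or FG_meso replicate 1, when 0 members were lower.

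Hox genes, which give cells their position along the body axis, differed between the regions by paralog number. Of 41 tested genes of groups 6 to 13, 34 were higher in HG_meso and 0 lower, and all 41 log2 differences were above 0, with a median of 4.2. The summed level of these genes was 1370 and 1382 TPM in HG_meso, against 11.8 and 23.2 TPM in FG_meso. Of 32 genes of groups 1 to 5, 13 were higher and 0 lower, with a median of 1.18, and 8 were higher without FG_meso replicate 1 or without FG_meso replicate 2.

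By group, the median log2 difference was −0.24 for group 1, where 0 of 6 genes were called, 0.63 for group 2, 1.47 for group 3, 2.56 for group 4 and 1.47 for group 5. It was 4.62 for group 6, 5.73 for group 7, 4.88 for group 8, 4.65 for group 9 and 4.39 for group 10. From there it was smaller, at 2.72 for group 11, 1.60 for group 12 and 1.00 for group 13, groups whose summed level in HG_meso was itself low. For group 13 it was 6.35 and 3.87 TPM in HG_meso, against 0.55 and 0.9 TPM in FG_meso. The hoxb9.S gene illustrates the middle groups with 95.4 and 98.2 TPM in HG_meso, against 0.53 and 0.2 TPM in FG_meso (log2 difference 6.17, SE 0.41, limma adjusted p = 2.49e-10). The hoxa7.L gene had 69.9 and 74.3 TPM in HG_meso, against 0.28 and 1.27 TPM in FG_meso (log2 difference 5.42, SE 0.30, limma adjusted p = 7.68e-12). The hoxc10.L gene had 53.4 and 55.0 TPM in HG_meso and was listed at 0 in both FG_meso libraries.

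**Figure D2:**
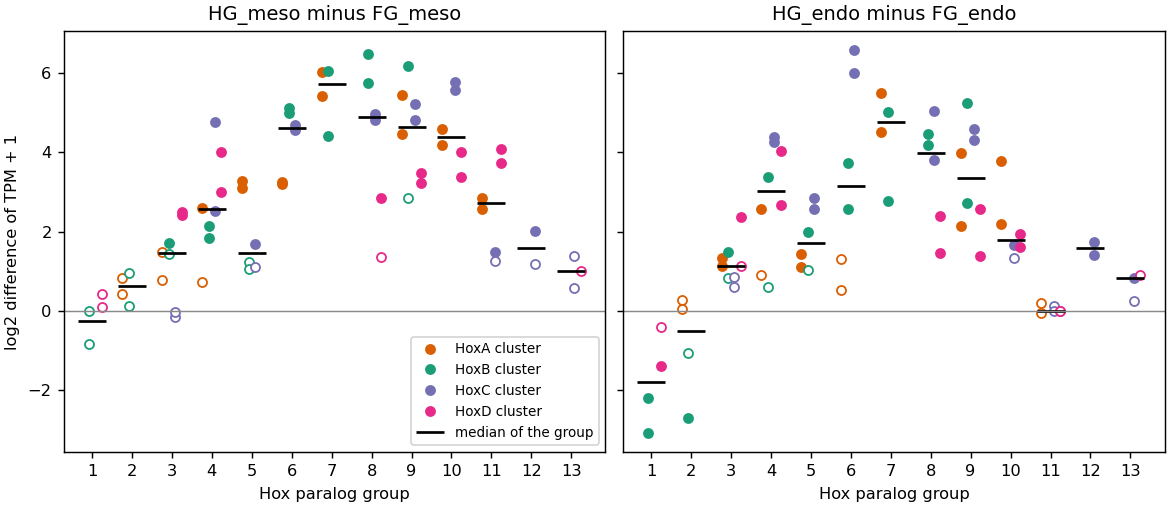
Log2 difference of TPM + 1 (vertical axis) for tested Hox genes by paralog group (horizontal axis), HG_meso minus FG_meso on the left and HG_endo minus FG_endo on the right. Filled points were called and open points were not, and bars are medians over all tested genes of a group, not all of which are plotted. In the mesoderm the median is −0.24 in group 1 and 5.73 in group 7, and group 11 has a median of 2.72 in mesoderm and 0.00 in endoderm.

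The genes lower in HG_meso included heart and pharyngeal regulators. The homeobox gene nkx2-3.S, of heart precursors and pharynx, had 0.63 and 0.16 TPM in HG_meso, against 33.8 and 24.2 TPM in FG_meso (log2 difference −4.43, SE 0.44, limma adjusted p = 1.12e-07). The cardiac homeobox gene nkx2-5.S had 0.73 and 0.42 TPM in HG_meso, against 20.2 and 13.6 TPM in FG_meso (log2 difference −3.49, SE 0.39, limma adjusted p = 1.03e-06). The homeolog nkx2-5.L had 0.77 and 0.5 TPM in HG_meso, against 10.15 and 10.08 TPM in FG_meso (limma adjusted p = 0.0162). Its call was lost with any 1 of the 4 mesoderm libraries left out. In the endoderm nkx2-5.S had 3.45 and 1.97 TPM in HG_endo, against 22.0 and 29.9 TPM in FG_endo, and was also called lower in HG_endo (log2 difference −2.87). The heart T-box gene tbx20.L had 3.13 and 1.9 TPM in HG_meso, against 17.9 and 14.2 TPM in FG_meso (log2 difference −2.29, SE 0.44, limma adjusted p = 0.00178). In each case both FG_meso libraries lay above both HG_meso libraries, and the groups were likewise apart in all 679 called features.

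Across the heart precursor list 7 of 49 members were lower in HG_meso (0.915% of all features were lower) and 2 were higher, with a median of −0.17. The lower count was 4 without HG_meso replicate 2 and 4 without FG_meso replicate 1. The 2 higher members were actc1.S and smyd1.L, which skeletal muscle also uses, and without HG_meso replicate 1 or FG_meso replicate 2 neither was called. The hand2 genes, bHLH factors of heart and lateral plate, were among the lower members, hand2.S with 5.22 and 4.74 TPM in HG_meso, against 30.6 and 17.6 TPM in FG_meso (log2 difference −2.02, SE 0.48, limma adjusted p = 0.0165). Its adjusted p was 0.0903 without HG_meso replicate 1, 0.114 without HG_meso replicate 2 and 0.303 without FG_meso replicate 1. Of the other heart genes asked for, gata4 was not called (limma adjusted p = 0.462 for gata4.L and 0.985 for gata4.S). Its levels were low, gata4.L with 0.94 and 0.26 TPM in HG_meso, against 3.24 and 2.97 TPM in FG_meso. In the explants gata4.L was called lower in HG_DMSO than in FG_DMSO (log2 difference −3.05, limma adjusted p = 0.000414) and in HG_noHS than in FG_noHS (−3.17, limma adjusted p = 0.0104). The copy gata4.S was called lower in HG_DMSO and not in HG_noHS.

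Head and pharyngeal mesoderm genes were lower in HG_meso, 13 of 49 members with 1 higher and a median of −0.72. That is 26.5% lower and 2.04% higher, against 0.915% and 1.44% of all tested features. The T-box gene tbx1.L, a regulator of the pharyngeal arches, had 1.23 and 1.01 TPM in HG_meso, against 26.9 and 25.7 TPM in FG_meso (log2 difference −3.69, SE 0.47, limma adjusted p = 6.56e-06). It was not particular to the mesoderm, with 13.9 and 6.8 TPM in HG_endo, against 61.8 and 139 TPM in FG_endo (log2 difference −3.12, limma adjusted p = 1.81e-05). The homeobox gene pitx1.L was listed at 0 in both HG_meso libraries, against 47.7 and 21.6 TPM in FG_meso. The 1 higher member was fgf10.L, a ligand gene of limb, lung and pharynx, with 8.85 and 7.43 TPM in HG_meso, against 0.2 TPM in each FG_meso library. The lower count was 7 without HG_meso replicate 2, 7 without FG_meso replicate 1 and 8 without FG_meso replicate 2.

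Of the 13 lower head genes 4, with pitx1.L and otx2.L among them, are also on the list for the cement gland, the mucus organ of the tadpole head. That list was lower in HG_meso for 8 of 10 members, in each fit that left out 1 mesoderm library, with a median of −3.63. The secreted gene agr2.L had 17.5 and 40.5 TPM in HG_meso, against 2196 and 1063 TPM in FG_meso (log2 difference −5.79, SE 0.65, limma adjusted p = 8.25e-07). The gene ag1.S had 37.6 and 30.5 TPM in HG_meso, against 536 and 305 TPM in FG_meso. Summed over the list the level was 201 and 246 TPM in HG_meso, against 5625 and 2852 TPM in FG_meso, and 23.4 to 97.3 TPM in the 4 endoderm libraries. The levels of agr2.L, ag1.S and pitx1.L were all higher in FG_meso replicate 1 than in replicate 2. The part of cement gland RNA in the lower head genes was not tested.

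The list for visceral lateral plate, the mesoderm around the gut, had 9 of 47 members lower and 0 higher, with a median of −0.14. That is 19.1% lower, against 0.915% of all tested features, but 6 of these 9 are also on the heart or cement gland lists. The FOX factor genes foxf1.L and foxf1.S, markers of this tissue, were not called, and foxf1.S differed by 0.52 (SE 0.44, limma adjusted p = 0.789). In the explants both copies were called higher in HG_DMSO than in FG_DMSO (log2 difference 1.97 for foxf1.L and 1.64 for foxf1.S). Neither copy was called in HG_noHS against FG_noHS. Of the 3 lower members on neither the heart nor the cement gland list, the Iroquois gene irx3.S had 0.41 and 0.63 TPM in HG_meso, against 18.1 and 19.0 TPM in FG_meso. This gene is also on the neural plate list. It was not particular to the mesoderm, with 3.96 and 2.57 TPM in HG_endo, against 42.0 and 82.4 TPM in FG_endo.

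Genes of primitive myeloid cells, the first blood cells of the frog embryo, which arise in the anterior ventral mesoderm, were lower in HG_meso. The share of their list called lower was 35.8%, against 0.915% of all tested features. Of 53 tested members 19 were called lower and 0 higher (3 higher at an unadjusted p under 0.05), with a median of −0.79, and 14 to 18 were lower with 1 mesoderm library left out. The peroxidase gene mpo.S had 3.85 and 0.16 TPM in HG_meso, against 386 and 301 TPM in FG_meso (log2 difference −7.17, SE 0.82, limma adjusted p = 1.16e-06). The ETS factor gene spib.L, a regulator of this lineage, had 0.9 and 0.27 TPM in HG_meso, against 128 and 116 TPM in FG_meso (log2 difference −6.30, SE 0.52, limma adjusted p = 7.84e-09). Both were near 0 in HG_meso and high in both FG_meso libraries. Genes for the NADPH oxidase of phagocytes went the same way, cyba.L with 0.46 and 0 TPM in HG_meso, against 70.2 and 84.0 TPM in FG_meso, and ncf1.L listed at 0 in both HG_meso libraries, against 29.6 and 30.3 TPM in FG_meso.

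The homeologs mpo.L (0.14 and 0 TPM in HG_meso, against 118 and 104 TPM in FG_meso) and spib.S (3.3 and 1.78 TPM in HG_meso, against 59.0 and 51.9 TPM in FG_meso) were lower as well. The list for the blood island and endothelium had 7 of 52 members lower and 0 higher, with a median of −0.18, and 1 was lower without HG_meso replicate 2 or without FG_meso replicate 1. That 1 was the bHLH gene lyl1.S, listed at 0 in both HG_meso libraries, against 12.1 and 7.21 TPM in FG_meso. The blood regulator tal1 was not called (limma adjusted p = 0.215 for tal1.L and 0.585 for tal1.S). Several of the other genes with a large deficit in HG_meso were on no list. The protease inhibitor gene timp-1.L had 8.12 and 0.55 TPM in HG_meso, against 476 and 307 TPM in FG_meso (log2 difference −6.67, SE 0.80). The complement factor D gene cfd.L had 0.37 and 0 TPM in HG_meso, against 45.5 and 28.4 TPM in FG_meso. The level of cfd.L was higher in the foregut endoderm than in FG_meso, with 2.75 and 6.27 TPM in HG_endo, against 419 and 248 TPM in FG_endo.

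**Figure D3:**
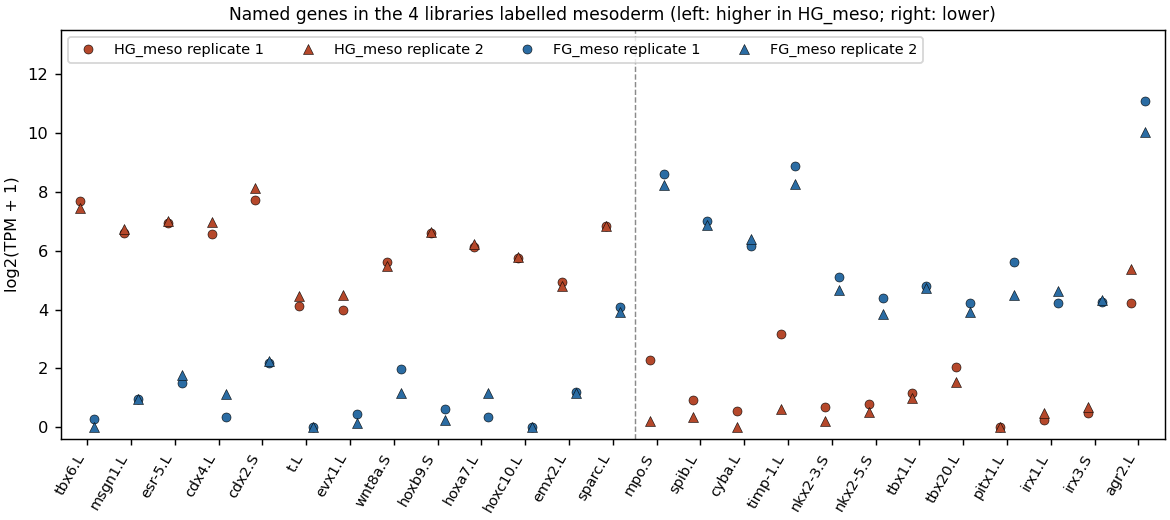
Levels of 25 named genes as log2(TPM + 1) (vertical axis) in the 4 libraries labelled mesoderm, with circles for replicate 1 and triangles for replicate 2. Left of the broken line are 13 genes higher in HG_meso and right of it 12 lower ones.

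Of the kidney list (pronephros) 5 of 53 members were higher and 5 lower, with a median of 0.00. That is 9.43% in each direction, against 1.44% higher and 0.915% lower of all tested features. The higher count was 2 or 3 with any 1 of the 4 libraries left out. The homeobox gene emx2.L, used in kidney and forebrain, had 30.1 and 27.1 TPM in HG_meso, against 1.28 and 1.24 TPM in FG_meso (log2 difference 3.71, SE 0.43, limma adjusted p = 1.42e-06). The Iroquois gene irx1.L went the other way, with 0.19 and 0.39 TPM in HG_meso, against 17.8 and 24.1 TPM in FG_meso (log2 difference −4.08, SE 0.50, limma adjusted p = 4.16e-06). This gene was not particular to the mesoderm, with 3.26 and 0.64 TPM in HG_endo, against 27.2 and 39.8 TPM in FG_endo (log2 difference −3.68, limma adjusted p = 4.96e-06). The list therefore held homeobox genes with opposite regional differences. Genes of retinoic acid, a signal made in trunk mesoderm, showed few calls, 3 higher and 2 lower of 38 with a median of −0.03, and at most 1 higher with any 1 library left out. The 2 lower calls became 0 without HG_meso replicate 2 and 1 without HG_meso replicate 1 or FG_meso replicate 1. The retinoic acid shares in the full fit were 7.89% higher and 5.26% lower, against the same background. The synthesis gene aldh1a2.L had 17.9 and 12.5 TPM in HG_meso, against 6.54 and 6.96 TPM in FG_meso, and was not called (limma adjusted p = 0.397).

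Wnt ligands and receptors were mostly higher in HG_meso where they were called, and some antagonists lower. Of 81 members on the list of ligands, receptors and secreted antagonists 10 were higher and 6 lower, with a median of 0.18, and the lower count was 2 without HG_meso replicate 2 or without FG_meso replicate 1. The ligand gene wnt8a.S, active in the posterior and ventral mesoderm, had 48.2 and 43.6 TPM in HG_meso, against 2.96 and 1.23 TPM in FG_meso (log2 difference 3.98, SE 0.48, limma adjusted p = 2.86e-06). The more abundant homeolog wnt8a.L had 118 and 90.9 TPM in HG_meso, against 20.65 and 10.83 TPM in FG_meso. Its log2 difference was smaller, at 2.71 (SE 0.57, limma adjusted p = 0.00578), and its call was lost without HG_meso replicate 1 or FG_meso replicate 2. The ligand gene wnt10a.L had 11.8 and 8.37 TPM in HG_meso, against 0.17 and 0.15 TPM in FG_meso, and wnt5b.S had 23.6 and 27.4 TPM in HG_meso, against 1.52 and 3.15 TPM in FG_meso. The receptor gene fzd10.L had 43.4 and 57.3 TPM in HG_meso, against 9.59 and 6.28 TPM in FG_meso (log2 difference 2.53, SE 0.32). All of these genes were higher in both HG_meso libraries than in either FG_meso library, and the groups were likewise apart in all 679 called features.

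Among secreted antagonists, sfrp2.S, whose protein binds Wnt ligands, had 17.2 and 6.35 TPM in HG_meso, against 63.5 and 74.6 TPM in FG_meso (log2 difference −2.59, SE 0.41, limma adjusted p = 0.000172). The gene dkk1.L, for an antagonist that blocks the Wnt co-receptors, had 5.95 and 2 TPM in HG_meso, against 28.4 and 23.3 TPM in FG_meso (log2 difference −2.55, limma adjusted p = 0.00457). Its call was lost without HG_meso replicate 2 (adjusted p = 0.146) and without FG_meso replicate 1 (0.0779). The homeolog dkk1.S had 3.28 and 1.99 TPM in HG_meso, against 14.1 and 4.33 TPM in FG_meso, and was not called (limma adjusted p = 0.331). Of sfrp1 and sfrp5 no copy was called, and sfrp5.L was at or below 0.1 TPM in all 4 libraries.

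On the Wnt target list 14 of 49 members were higher and 2 lower, with a median of 0.82, and 9 were higher without HG_meso replicate 1 and 8 without FG_meso replicate 1. Of the 14, 5 are cdx copies and t.L, that is 6 genes already counted with the tail bud. Of the others, the feedback inhibitor gene axin2.L had 8.08 and 9.66 TPM in HG_meso, against 1.36 and 1.1 TPM in FG_meso (log2 difference 2.14, SE 0.41, limma adjusted p = 0.00178), and notum.S, for an enzyme that inactivates Wnt ligands, had 24.7 and 28.6 TPM in HG_meso, against 3.54 and 3.85 TPM in FG_meso.

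Of the BMP list 7 of 73 members were higher and 1 lower, with a median of 0.08. Of these 7, 6 were ventx genes, homeobox genes that BMP signalling induces on the ventral side. For example, ventx1.2.L had 51.1 and 42.0 TPM in HG_meso, against 3.83 and 1 TPM in FG_meso (log2 difference 3.93, SE 0.39, limma adjusted p = 1.16e-07). The ligand gene bmp4 did not pass in either copy: bmp4.L had 66.4 and 56.3 TPM in HG_meso, against 78.4 and 66.4 TPM in FG_meso (log2 difference −0.23, SE 0.26). Its groups met at 66.4 TPM. The 1 lower member, bmp3.L, was not called without FG_meso replicate 2, and 2 members were lower without HG_meso replicate 1.

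Each of the remaining signalling lists had 3 or 4 members called higher. The shares were 11.8% for Nodal and TGF-beta, 5.45% for FGF, 9.09% for Hedgehog and 12.9% for Notch, against 1.44% of all tested features. The shares called lower were 0%, 3.64%, 3.03% and 0% in the same order, against 0.915% of all. In Nodal and TGF-beta 4 of 34 members were higher and 0 lower (median 0.17), with 2 higher without HG_meso replicate 1, FG_meso replicate 1 or FG_meso replicate 2. The ligand gene gdf3.S had 11.7 and 8.95 TPM in HG_meso and was listed at 0 in both FG_meso libraries. In FGF signalling 3 of 55 were higher and 2 lower (median 0.27), 1 higher with any 1 library left out, 0 lower without HG_meso replicate 2 or FG_meso replicate 1, 1 lower without FG_meso replicate 2, and 5 higher with the replicate block. In Hedgehog signalling 3 of 33 were higher and 1 lower (median 0.54), at most 1 higher with any 1 library left out, 0 lower without FG_meso replicate 2, and 7 higher with the block. In Notch signalling 4 of 31 were higher and 0 lower (median 0.31), 2 without HG_meso replicate 1, 2 without HG_meso replicate 2 and 1 without FG_meso replicate 2, and 7 higher and 1 lower with the block. In all 4 fits that left out a library dlc.L stayed higher.

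Extracellular matrix genes had 4 of 58 members higher and 0 lower, with a median of 0.55, and 2 were higher without HG_meso replicate 2 or without FG_meso replicate 1. The matrix glycoprotein gene sparc.L had 113 TPM in each HG_meso library, against 15.94 and 13.98 TPM in FG_meso (log2 difference 2.84, SE 0.37, limma adjusted p = 1.32e-05). Of 74 cell cycle genes limma called 0 higher and 0 lower, also with the block, against 7 higher and 1 lower at an unadjusted p under 0.05, and the median was 0.20. The proliferation gene mki67.L had 44.3 and 39.7 TPM in HG_meso, against 21.9 and 25.6 TPM in FG_meso (limma adjusted p = 0.199). Of the neural crest list 6 of 34 were higher (1 or 2 without HG_meso replicate 1, FG_meso replicate 1 or FG_meso replicate 2), led by tfap2e.L with 8.71 and 6.64 TPM in HG_meso, against 0.17 and 0.11 TPM in FG_meso. Of 61 neural plate genes 0 were higher and 2 (3.28%), otx2.L and irx3.S, lower. For the lists of this paragraph the background is 1.44% of all tested features higher and 0.915% lower. The shares of the next 2 lists were 3.03% higher and 6.06% lower for notochord, and 5.56% higher and 1.85% lower for endoderm. Notochord genes had 1 of 33 higher, t.L, and 2 lower, and endoderm genes had 3 of 54 higher and 1 lower; the higher endoderm genes were vwa2.S, sox17a.L and sox17a.S, and vwa2.S alone was called higher without HG_meso replicate 1. Of both the notochord and the endoderm list 0 genes were lower without HG_meso replicate 2 or FG_meso replicate 1. Without FG_meso replicate 2 the lower genes were 1 of the notochord and 2 of the endoderm list, and 2 of the endoderm list without HG_meso replicate 1. In that last fit 1 paraxial and 1 Notch gene were also lower and 1 visceral gene higher. With the replicate block further counts grew: 4 notochord, 2 head, 2 visceral, 2 epidermis, 1 myeloid and 1 neural plate gene were higher, and 4 endoderm, 3 BMP and 1 paraxial gene lower.

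**Figure D4:**
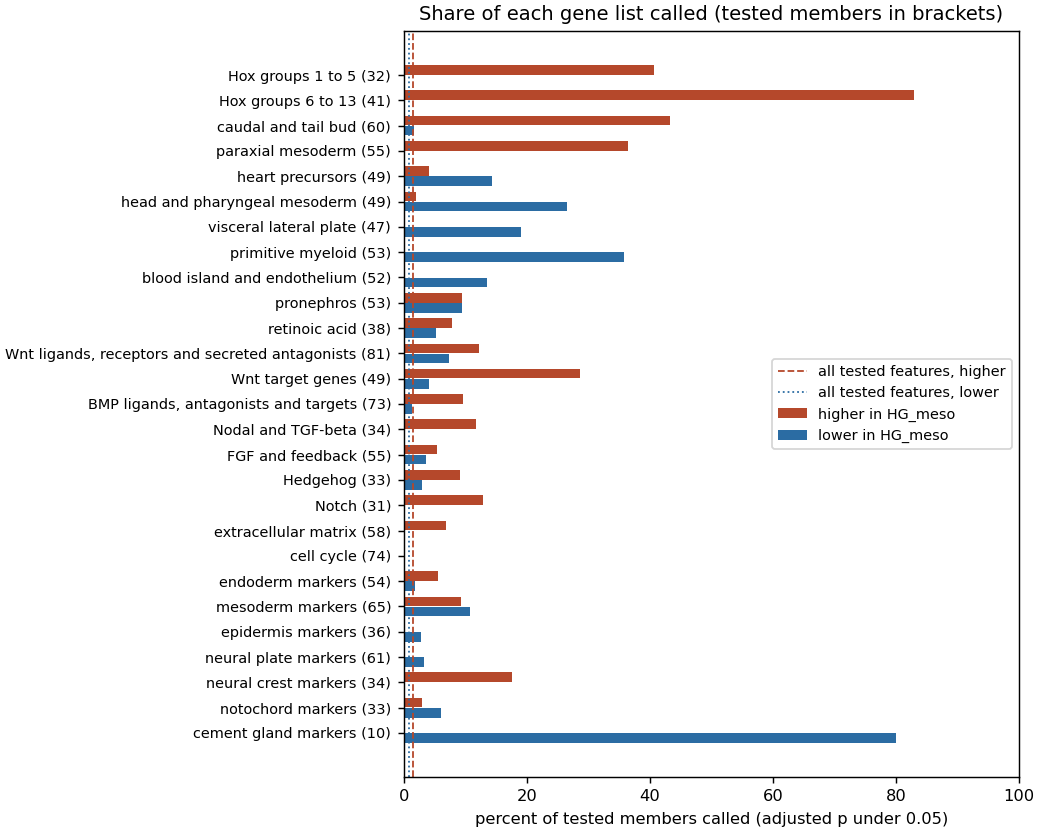
Percent of the tested members of each of 27 gene lists (horizontal axis) called higher (red) or lower (blue) in HG_meso at an adjusted p under 0.05, with the number tested in brackets. The broken and dotted lines give the share of all tested features, 1.44% higher and 0.915% lower. Hox groups 6 to 13 reach 82.9% higher and the cement gland list 80.0% lower.

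Xenopus laevis keeps a pair of copies, written .L and .S, of many genes, and these can be read side by side. Of 7104 pairs with both copies tested, 329 had at least 1 called copy. In 92 of these both copies were called in the same direction and in 2 in opposite directions. In the other 235 pairs 1 copy was called, and in 188 of these the other copy had the same sign. The share of pairs with the same sign among all 7104 is not given here, so these counts have no background. Near-identical copies may share reads, which was not tested. Among the tail bud genes cdx2.L had 172 and 192 TPM in HG_meso, against 19.5 and 10.3 TPM in FG_meso (log2 difference 3.59, SE 0.37), a smaller difference than that of cdx2.S. For the phagocyte oxidase gene, cyba.S had 1.43 and 3.37 TPM in HG_meso, against 18.0 and 13.2 TPM in FG_meso. Its call (limma adjusted p = 0.00183) was lost without HG_meso replicate 1 or FG_meso replicate 1. In the endoderm the 2 copies went opposite ways. There cyba.S had 34.05 and 39.5 TPM in HG_endo, against 16.81 and 12.35 TPM in FG_endo (log2 difference 1.29, limma adjusted p = 0.0424), while cyba.L was lower in HG_endo (log2 difference −4.01).

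Explants that were not separated into layers gave a repeat of the regional comparison in other libraries. Of the 378 features higher by at least 2-fold in HG_meso, 237 (62.7%) were also called higher in HG_DMSO than in FG_DMSO, where 2.38% of all features were called higher. Of the 250 lower ones 206 (82.4%) were called lower there, against 5.08% of all. The shared features with a 2-fold difference in both made up 40.7% of the 560 higher and 18.8% of the 1073 lower 2-fold calls of HG_DMSO. Of the 628 features 1 was called in the opposite direction, and 7.47% of all features were called in either. In the unheated embryos 137 (36.2%) of the higher features were called higher in HG_noHS than in FG_noHS, where 0.662% of all were, and 124 (49.6%) of the lower ones were called lower, where 0.724% were (1.39% in either direction). Together 466 of the 628 (74.2%) were called in the same direction in at least 1 of these contrasts. In group means, tbx6.L stood at 87.5 TPM in HG_DMSO and 0.993 TPM in FG_DMSO, mpo.S at 9.38 TPM in HG_DMSO and 478 TPM in FG_DMSO, and nkx2-5.S at 0.603 TPM in HG_DMSO and 61.3 TPM in FG_DMSO. These explants held cement gland RNA too, with agr2.L averaging 16.4 TPM in HG_DMSO and 2596 TPM in FG_DMSO.

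Part of these differences was also called in the endoderm of the same regions, where 18.6% of all tested features were called. Of the 378 higher features 186 (49.2%) were called higher in HG_endo than in FG_endo, against 10.7% of all features, and of the 250 lower ones 103 (41.2%) were called lower, against 7.86% of all. Another 17 were called in the opposite direction. The 4 genes of Hox group 7, both copies of cdx4 and of cdx2, wnt5b.S and ventx1.2.L differed in both layers on the hindgut side. On the foregut side mpo.S, spib.L, nkx2-3.S, nkx2-5.S, tbx1.L and irx3.S did. The myeloid genes mpo.S and spib.L had lower levels in FG_endo than in FG_meso, spib.L with 61.7 and 25.4 TPM in FG_endo, against 128 and 116 TPM in FG_meso. The part of mesodermal RNA in the endoderm libraries was not tested. In the endoderm libraries cdx4.L had 321 and 298 TPM in HG_endo, against 4.65 and 7.66 TPM in FG_endo, and mpo.S had 0 and 0.27 TPM in HG_endo, against 132 and 69.6 TPM in FG_endo.

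Whether a regional difference differed between the layers was tested as an interaction, the mesoderm difference minus the endoderm difference. Of the 628 regional features of the mesoderm 182 were called. The mesoderm difference that chose them is part of the interaction, so a share above that of all features follows in part from the choice. Of all tested features 2400 were called (8.32%), 1386 higher (4.8%) and 1014 lower (3.51%). The total was 4950 without FG_endo replicate 2 and 2793 without FG_endo replicate 1, the library with the fewest detected features. The presomitic genes were regional in the mesoderm to a larger extent: tbx6.L stood at 2.93 and 1.34 TPM in HG_endo and at 0.62 and 1.53 TPM in FG_endo, and its interaction was 6.84 (SE 0.88, limma adjusted p = 8.91e-06). Likewise msgn1.S differed by 4.83 in mesoderm and by 0.42 in endoderm (interaction adjusted p = 2.11e-05). The muscle gene tnnt3.S, with 21.9 and 21.1 TPM in HG_meso, against 1.25 and 0.66 TPM in FG_meso, did not differ in the endoderm libraries by the test (log2 difference −0.40, adjusted p = 0.667, interaction adjusted p = 0.000238).

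Hox groups 10 and 11 showed the layer difference most often, with 4 of 6 genes of each called in the interaction. Group 11 summed to 48.9 and 42.6 TPM in HG_meso and 0.34 and 0.45 TPM in FG_meso, and to at most 1.27 TPM in the 4 endoderm libraries. The hoxd11.S gene had 16.1 and 15.5 TPM in HG_meso and was listed at 0 in both FG_meso libraries and in all 4 endoderm libraries (interaction adjusted p = 2.63e-05). In contrast hoxa7.L differed by 5.42 in mesoderm and 5.51 in endoderm.

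Some genes had opposite regional differences in mesoderm and endoderm, and others were called in the endoderm alone. The heart gene tbx20.L had 11.3 and 4.04 TPM in HG_endo and 1.17 and 0.45 TPM in FG_endo, a difference of 2.15 in endoderm beside −2.29 in mesoderm (interaction −4.44, SE 0.62, limma adjusted p = 2.23e-05). It was thus higher on the foregut side in mesoderm and on the hindgut side in endoderm. Its 4.04 TPM in HG_endo replicate 2 lay near the 3.13 TPM of HG_meso replicate 1. The ligand gene bmp4.L had 98.1 and 96.8 TPM in HG_endo and 33.9 and 25.7 TPM in FG_endo, so that it was regional in endoderm (log2 difference 1.69) and not called in mesoderm, with an interaction of −1.92 (limma adjusted p = 0.000919). Its homeolog bmp4.S was also called in endoderm (log2 difference 1.00), but its interaction was not called (−0.88, limma adjusted p = 0.225). The Wnt antagonist gene sfrp5.L was lower in HG_endo, at 0.85 and 1.64 TPM against 14.1 and 46.7 TPM in FG_endo, and close to 0 in both mesoderm groups.

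**Figure D5:**
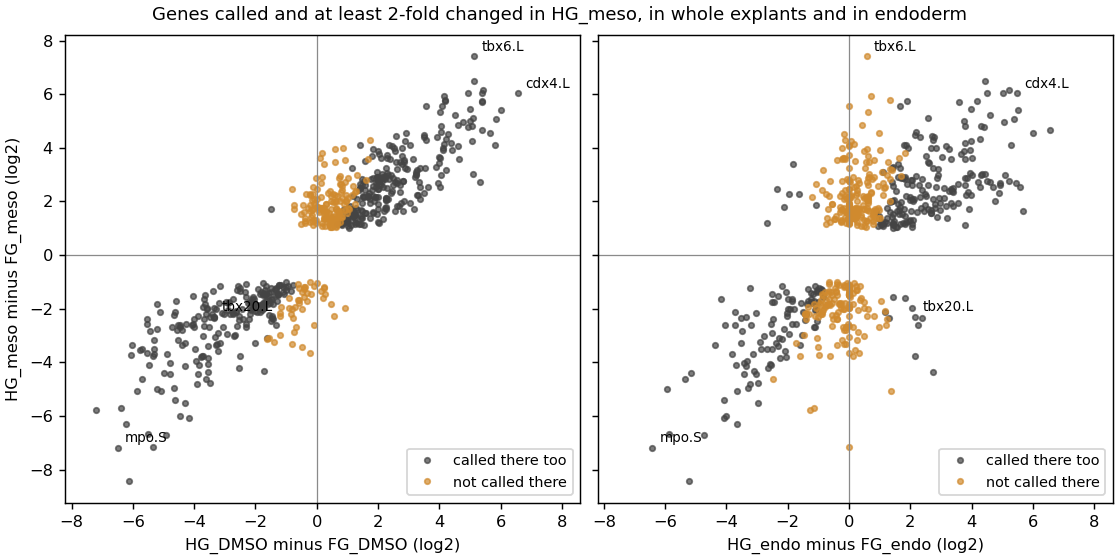
Log2 difference HG_meso minus FG_meso (vertical axis) of the 628 features called and at least 2-fold changed, against HG_DMSO minus FG_DMSO (left, horizontal axis) and HG_endo minus FG_endo (right). Dark points were called in the second contrast too and orange points were not. In HG_DMSO against FG_DMSO 237 of the 378 upper and 206 of the 250 lower points were called in the same direction, while in endoderm tbx20.L lies on the opposite side.

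Of the 628 regional features 125 were called in the same direction in none of the other 3 contrasts. Of the 378 higher ones 185 were not called in the endoderm in either direction. The 378 were still called there more often than features in general. As given above, 49.2% of them were called higher in HG_endo, against 10.7% of all tested features, and 18.6% of all were called in either direction.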

How the data were processed

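The authors deposited 1 table of TPM values (transcript abundances scaled by length and to a common sum), made, per the submitters' processing notes, with FastQC, Trimmomatic and RSEM; versions, aligner and genome build are not given in the sources used here. Per the labels' protocols, RNA was extracted with a Nucleo-spin kit and TruSeq stranded mRNA libraries were built. Read depth cannot be recovered from TPM, so counting error is not known. Besides 1 empty line the deposited table holds 40271 features. Its 37 value columns were all used (0 left out), 33 matched to a sample by title and 4, hindgut libraries of the heat shock experiment, to their group only.

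The filter kept 28863 features that reached 1 TPM in 2 or more libraries. Their log2(TPM + 1) values were modelled with limma 3.58.1 (R 4.3.3; variance trend on; 22 residual and 4.22 prior degrees of freedom), using 1 mean for each of the 15 groups over all 37 libraries. Regional differences and the interaction of region and layer are contrasts of these means. Within a contrast, p-values were adjusted over every tested feature by the Benjamini-Hochberg method. Errors are SE of the log2 difference. Each .L and .S copy was tested by itself.

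The 27 gene lists, which overlap, and the named genes were chosen with earlier results of these data known. Named were 26 candidate genes of tail bud, heart, blood and signalling; the 15 largest called differences each way that were 2-fold or more, carried a symbol, averaged 5 TPM or more in the higher group, did not overlap and held with any of the 4 libraries left out, plus their homeologs; up to 4 members of each list; and the 8 largest interactions. The text prints a part of these. Marker genes of the label check, tnnt3.S and some list members (myod1.L, wnt5b.S and sfrp2.S among them) were chosen after their values were seen. Of the candidates, hand1 is not used here and tbx5 did not pass the filter.

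Pairing by replicate number was examined on deviations from group means: same-number libraries of the 4 layer groups correlated at 0.101 to 0.335 in all 6 pairs of groups. Results of the fit with the replicate block therefore stand beside those whose call it changes or whose count it moves by more than 1.5 times. Other settings were a pseudocount of 0.1 or 5, the filter dropped or raised to 5 TPM, scaling by median of ratios, homeologs summed, the block, fits to fewer libraries, and leaving out single libraries; doing so with endoderm libraries for the share called in endoderm was added after seeing the data. Where this leaves a lone sample, it is taken to vary as the other groups do. The code was tested on simulated data. Plots used matplotlib 3.10.9 (Python 3.11.15). Symbols are those of the table, and 15381 of 18744 tested features with a symbol were found in a RefSeq gene table. No sequences or coordinates were used. Results of some single genes are not reported here, though they count in the totals and lists.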

Additional observations from a re-analysis of the deposited data

Results flagged for a closer look

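The interaction test called 8.32% of all tested features (limma adjusted p under 0.05). Given here are 15 of the named genes it called, which were candidates or among the 8 largest interactions. The latter were picked because they were called. Other named genes were called too, among them hoxc10.L (4.46), agr2.L (−4.51) and esr-5.L (4.72). The value is the log2 mesoderm difference minus the endoderm difference, with 2 libraries per group. It was above 0 for tbx6.L (6.84), tbx6.S (5.2), msgn1.L (3.85), msgn1.S (4.41) and evx1.L (2.93) of the tail bud, for the actin gene actc1.S (5.56), for the peroxidase gene gpx3.S (5.2), and for sfrp5.L (3.48) and sfrp5.S (2.89), whose regional difference lay in the endoderm. It was below 0 for pitx1.L (−6.42), tbx20.L (−4.44), spib.L (−2.65), bmp4.L (−1.92), cdx1.L (−3.37) and nkx6-2.L (−5.07). The homeologs evx1.S (1.59), spib.S (−0.60), bmp4.S (−0.88) and cdx1.S (−1.16) had the same sign as their partner copy but were not called (limma adjusted p = 0.121, 0.682, 0.225 and 0.331).

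All 15 passed without FG_endo replicate 1, and 13 passed with any 1 of the 8 layer libraries left out. The exceptions were spib.L, with a largest adjusted p of 0.0945, and actc1.S, with 0.114. The gene gpx3.S had 165 and 147 TPM in HG_meso, against 14.03 and 13.93 TPM in FG_meso, and 4.42 and 6.74 TPM in HG_endo, against 26.7 and 17.7 TPM in FG_endo. The gene nkx6-2.L was listed at 0 in all 4 mesoderm libraries, so its value describes the endoderm alone.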

How the results depend on the processing

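With a pseudocount of 0.1 or 5, the filter dropped or raised to 5 TPM, scaling by median of ratios or homeologs summed, the counts of features higher (300 to 443) and lower (191 to 385) in HG_meso stayed within 1.5 times of 415 and 264, and so did the interaction count. The replicate block gave 673 higher and 370 lower. Of the candidate and largest-difference genes it changed the call of t.S, tkt.L and gngt2.1.L, which passed with it, and no other. Fitted to the 8 layer libraries alone, 160 were higher, 116 lower and 314 called in the interaction. Among the 85 candidate and largest-difference genes with their homeologs, 24 lost their call in that fit and 1 gained a call. In the fit described next 60 of the 85 lost theirs. Fitted to the 4 mesoderm libraries alone, limma called 0 higher and 0 lower, with 3697 features at an unadjusted p under 0.05 (3186 in the fit to all libraries) and a smallest adjusted p of 0.0702; this fit has few degrees of freedom. With 1 library left out, 221 to 319 features were higher, 136 to 220 lower and 1624 to 4950 called in the interaction. The share of mesoderm calls found in HG_DMSO was 61.9% to 83.1%, in HG_noHS 35.7% to 54.7% and in HG_endo 32.5% to 52.9% over all settings.

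Log2 differences that changed sign belonged to uncalled genes. With median-of-ratios scaling they were −0.014 for aldh1a2.S and −0.034 for bmp4.S, which was −0.047 with homeologs summed. With 1 library left out, the range was −0.065 to 0.29 for aldh1a2.S, −0.12 to 0.37 for bmp4.S, −0.35 to 0.33 for fgf8.L, −0.70 to 0.21 for gata4.S, −1.07 to 0.32 for sfrp1.S and −0.61 to 0.41 for sfrp5.S. The cause was not tested.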

Other observations

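Some genes higher in HG_meso that lie outside the lists are described here, chosen after their values were seen. The gene hes7.2.S, of the Hes family of transcription factors, had 38.5 and 55.3 TPM in HG_meso, against 1.14 and 2.28 TPM in FG_meso (log2 difference 4.15, limma adjusted p = 5.21e-05), and hes9-1.L had 23.6 and 21.3 TPM in HG_meso and was listed at 0 in both FG_meso libraries. Near-identical copies within this family may share reads, and the family as a whole was not counted or tested. The neurotrophin receptor gene ngfr.L had 116 and 125 TPM in HG_meso, against 4.82 and 5.14 TPM in FG_meso, and differed as much in endoderm (log2 difference 4.34 in mesoderm and 4.28 in endoderm). The keratin gene krt16.S had 183 and 139 TPM in HG_meso, against 8.08 and 4.47 TPM in FG_meso, and at most 0.25 TPM in the 4 endoderm libraries.

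On the lower side, also chosen after their values were seen, hesx1.L, a homeobox gene of the anterior head, was listed at 0 in both HG_meso libraries, against 5.62 and 5.09 TPM in FG_meso, and nkx2-6.L, a relative of nkx2-5, had 3.09 and 0.69 TPM in HG_meso, against 31.1 and 21.6 TPM in FG_meso. The interleukin gene il1b.S had 1.15 and 0 TPM in HG_meso, against 22.8 and 15.96 TPM in FG_meso. The germ cell gene ddx4.L was higher in HG_meso, at 72.7 and 63.9 TPM, against 19.6 and 21.1 TPM in FG_meso (log2 difference 1.70, limma adjusted p = 6.70e-05).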
